A study of Mus musculus with 2 samples.

Results

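The regions described here are runs of zinc finger genes on the mouse autosomes. A run was formed where at least 3 protein-coding genes with a symbol of the form Zfp plus a number had starts no more than 500 kb from the next, and it reached from the first start to the last end. The rule gave 34 runs on 14 autosomes, which held 236 of the 388 autosomal Zfp genes. They overlapped 401 of the 49264 autosomal 50 kb bins, or 0.814% of them, over 18.6 Mb. Chromosome 7 carried 9 of the runs, and 10 runs held at least 8 Zfp genes. The name Zfp covers C2H2 zinc finger genes of several kinds, and in 11 runs fewer than 50% of the protein-coding genes were Zfp genes.

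C2H2 zinc finger proteins bind DNA through tandem fingers, and many of those in clusters carry a KRAB domain. KRAB zinc finger proteins recruit the corepressor TRIM28 (KAP1) and the histone methyltransferase SETDB1 to transposable elements and to some genes. The clusters grew by tandem duplication, so neighbouring genes can be near-identical, and in several cell types their own chromatin carries H3K9 trimethylation.

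Contacts were measured in wildtype mouse liver by HiChIP, in which ligated chromatin is precipitated with an antiserum, here one against the forkhead factor Foxa2. There was 1 library from mice given the propylene glycol and Tween 80 vehicle and 1 from mice given GW4064, an agonist of the bile acid receptor FXR, both collected 4 h after a single gavage. The sources used here give no strain, sex or age of the mice, nor say whether livers were pooled. The libraries held 22686004 (vehicle) and 29003442 (GW4064) contacts, and 21.7% and 17.8% of autosomal contacts joined different chromosomes. With 1 library per group no value has a replicate check, every interval below is a 95% interval for counting error only, and what belongs to the treatment cannot be told apart from what belongs to the library.

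Promoter sequences show how alike some members are, including members whose bins hold very different counts. RefSeq promoters (build GRCm38.p6, 250 bases before to 50 after the gene start) were matched for 204 of the 236 Zfp genes in runs. Set base by base without gaps, the closest pair with any differing base joined Zfp965, at chr2:175469775-175470074 on the plus strand, and Zfp971, at chr2:178023034-178023333 on the plus strand. They lie in neighbouring runs of chromosome 2 and differ at 9 of 300 bases, printed in capitals.

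Zfp965: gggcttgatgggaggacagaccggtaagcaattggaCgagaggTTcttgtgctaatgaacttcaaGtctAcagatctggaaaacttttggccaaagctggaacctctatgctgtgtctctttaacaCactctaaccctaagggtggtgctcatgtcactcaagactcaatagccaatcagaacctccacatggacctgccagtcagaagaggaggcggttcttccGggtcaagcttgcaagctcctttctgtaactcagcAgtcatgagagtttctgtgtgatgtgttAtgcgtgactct

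Zfp971: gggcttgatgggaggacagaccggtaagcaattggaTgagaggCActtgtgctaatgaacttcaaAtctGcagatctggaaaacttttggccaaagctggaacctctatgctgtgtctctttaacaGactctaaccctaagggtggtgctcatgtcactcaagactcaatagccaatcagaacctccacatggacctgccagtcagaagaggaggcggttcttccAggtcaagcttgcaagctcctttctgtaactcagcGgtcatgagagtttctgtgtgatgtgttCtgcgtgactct

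The bin with the Zfp965 promoter held 1 contact in the vehicle library and 0 in the GW4064 library. That of Zfp971 held 578 and 739, against medians of 800 and 1009 over all autosomal bins. The closest pair on chromosome 4 joined both runs there, Zfp980 at chr4:145670447-145670746 on the plus strand and Zfp979 at chr4:147642459-147642758 on the minus strand. They differ at 45 of 300 bases, again in capitals.

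Zfp980: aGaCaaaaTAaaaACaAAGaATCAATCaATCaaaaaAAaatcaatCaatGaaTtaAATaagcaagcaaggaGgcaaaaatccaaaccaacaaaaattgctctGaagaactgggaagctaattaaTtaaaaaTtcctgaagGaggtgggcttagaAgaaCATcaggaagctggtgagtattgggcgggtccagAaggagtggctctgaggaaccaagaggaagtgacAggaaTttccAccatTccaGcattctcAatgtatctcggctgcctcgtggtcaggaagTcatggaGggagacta

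Zfp979: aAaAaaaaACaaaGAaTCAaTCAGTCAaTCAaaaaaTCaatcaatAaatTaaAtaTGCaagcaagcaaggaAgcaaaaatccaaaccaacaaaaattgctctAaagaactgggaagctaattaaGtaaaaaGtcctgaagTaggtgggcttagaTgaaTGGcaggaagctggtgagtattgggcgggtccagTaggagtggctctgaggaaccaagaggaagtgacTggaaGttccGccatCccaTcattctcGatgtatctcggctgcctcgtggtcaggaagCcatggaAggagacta

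Their bins held 651 and 966 contacts for Zfp980, and 591 and 824 for Zfp979. Words of 36 bases shared with the promoter of another gene at another place occurred in 27.0% of the run promoters and in 9.49% of 16457 protein-coding promoters. At least 50% of the words were shared in 19 run promoters (9.31%, against 3.73% of all). All 3 run promoters that lay in bins under 100 contacts were among these 19, and all 3 belong to the run from Zfp968 to Zfp966. Over the 19 promoters the median bin held 578 and 826 contacts, against 747 and 863 for the 185 promoters under 50%. Zfp970, with 100% of its words shared, lay in a bin of 566 and 768 contacts. The part of shared sequence in the low counts of run bins was not tested. The forkhead core TGTTTAC, read on both strands, was in 4 of 204 run promoters (1.96%) and in 3.01% of all. The letters TATAAA, also on both strands, were in 5.39% and 13.5%.

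Coverage set what could be measured in each run. The median run bin held 685 contacts in the vehicle and 808 in the GW4064 library. Bins under 100 contacts made up 5.99% and 5.74% of run bins, against 3.21% and 3.15% of all autosomal bins. The run from Zfp968 to Zfp966 (chr2:175372034-175931100, 3 Zfp genes) had all 12 bins under 100 contacts and gives no value below, which leaves 33 runs. On chromosome 4, the run from Zfp990 to Zfp993 (chr4:145510759-146991471) holds 7 Zfp genes beside 32 pseudogenes. Its median bin held 24.4% and 26.4% of the contacts of the median autosomal bin, and 9 of its 30 bins were under 100 contacts in the vehicle library. The neighbouring run from Zfp978 to Zfp933 (chr4:147124882-147849126, 9 Zfp genes, 16 pseudogenes) stood at 122% and 130%. In the run from Zfp433 to Zfp938 (chr10:81704747-82241280, 4 Zfp genes) the median bin was at 17.1% and 18.0%. For orientation, the bin of Alb, which encodes albumin, held 1038 and 969 contacts, and the 3 bins of Ptprc, a leukocyte gene, averaged 964 and 1269.

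Zinc finger runs on different chromosomes met each other more often than their coverage gives. The expectation was the product of the trans contacts of both bins, scaled for each pair of chromosomes. The vehicle library held 436 such contacts where 246 were expected, a ratio of 1.77 (1.61 to 1.95). The GW4064 library held 460 where 243 were expected, a ratio of 1.89 (1.72 to 2.07). The contacts were spread over 435 and 457 bin pairs, and no bin pair held more than 2. Expectations that also used the compartment of both bins gave 1.77 (1.60 to 1.94) and 1.87 (1.70 to 2.05). Compartment here means 5 classes of the first eigenvector of the cis contact map at 250 kb, with both libraries pooled. It was oriented so that high values go with many genes.

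Most runs took part. Of 33 runs, 28 had more contacts with runs of other chromosomes than expected in both libraries, 19 were at least 1.5 in both, and for 16 the interval lay above 1 in both. Each contact counts for both runs that it joins, so the values of single runs are not independent. Zfp160 to Zfp13 alone took part in 147 of the 436 and 156 of the 460 contacts. The largest run by length, from Zfp160 to Zfp13 on chromosome 17 (chr17:21008941-23599755, 23 Zfp genes, 52 bins), had 147 and 156 such contacts, a ratio of 2.23 in each library (1.89 to 2.62 and 1.89 to 2.61). It was the only run with at least 200 contacts behind this value over both libraries. The run with most Zfp genes, from Zfp640 to Zfp273 on chromosome 13 (chr13:66670274-67827000, 24 Zfp genes), had 50 and 64 contacts, ratios of 1.82 (1.35 to 2.40) and 2.32 (1.78 to 2.96). This run holds the Rsl region, with Rsl1 and Zfp708, known for KRAB repressors of sex-biased liver genes.

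Values of the remaining runs with at least 8 Zfp genes differed more. Zfp871 to Zfp414 (chr17:32765496-33631716) stood at 1.73 (1.25 to 2.32) in the vehicle and 2.66 (2.06 to 3.39) in the GW4064 library. On chromosome 7, Zfp84 to Zfp146 (chr7:29768552-30169775), the run with Zfp568, stood at 1.88 (1.15 to 2.91) and 3.93 (2.78 to 5.39). Zfp607b to Zfp36 (chr7:27674661-28379228) stood at 2.51 (1.81 to 3.39) and 1.88 (1.26 to 2.70). Zfp141 to Zfp819 (chr7:42473386-43618279) stood at 2.24 (1.68 to 2.93) and 1.92 (1.41 to 2.57). Zfp180 to Zfp526 (chr7:24081877-25227876) was at 1.53 (1.07 to 2.12) and 1.45 (0.979 to 2.07), and Zfp553 to Zfp646 (chr7:127233061-127885996) at 1.67 (1.07 to 2.48) and 1.73 (1.07 to 2.65). These intervals overlap between the libraries in every one of these runs.

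The chromosome 4 runs were not the ones that led. Zfp978 to Zfp933 had 51 and 57 contacts with runs of other chromosomes, a ratio of 1.57 in both (1.17 to 2.06 and 1.19 to 2.04). Zfp990 to Zfp993 had 26 and 35, ratios of 1.13 (0.740 to 1.66) and 1.30 (0.902 to 1.80), so neither interval excluded 1. With compartment in the expectation both runs stood higher. Zfp978 to Zfp933 was then at 1.87 (1.39 to 2.46) and 1.96 (1.49 to 2.54). Zfp990 to Zfp993 was at 1.30 (0.851 to 1.91) and 1.48 (1.03 to 2.07), where the GW4064 interval excluded 1. The highest value pooled over both libraries was that of Zfp433 to Zfp938, 3.88 (2.64 to 5.51) and 3.43 (2.32 to 4.90) on 31 and 30 contacts; it is named after its value was seen, and its bins have low coverage. Zfp786 to Zfp775 on chromosome 6 (chr6:47815536-48621548, 9 Zfp genes) was lowest in the vehicle library at 0.770 (0.470 to 1.19), and stood at 1.42 (0.985 to 1.99) in the GW4064 library.

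**Figure D1:**
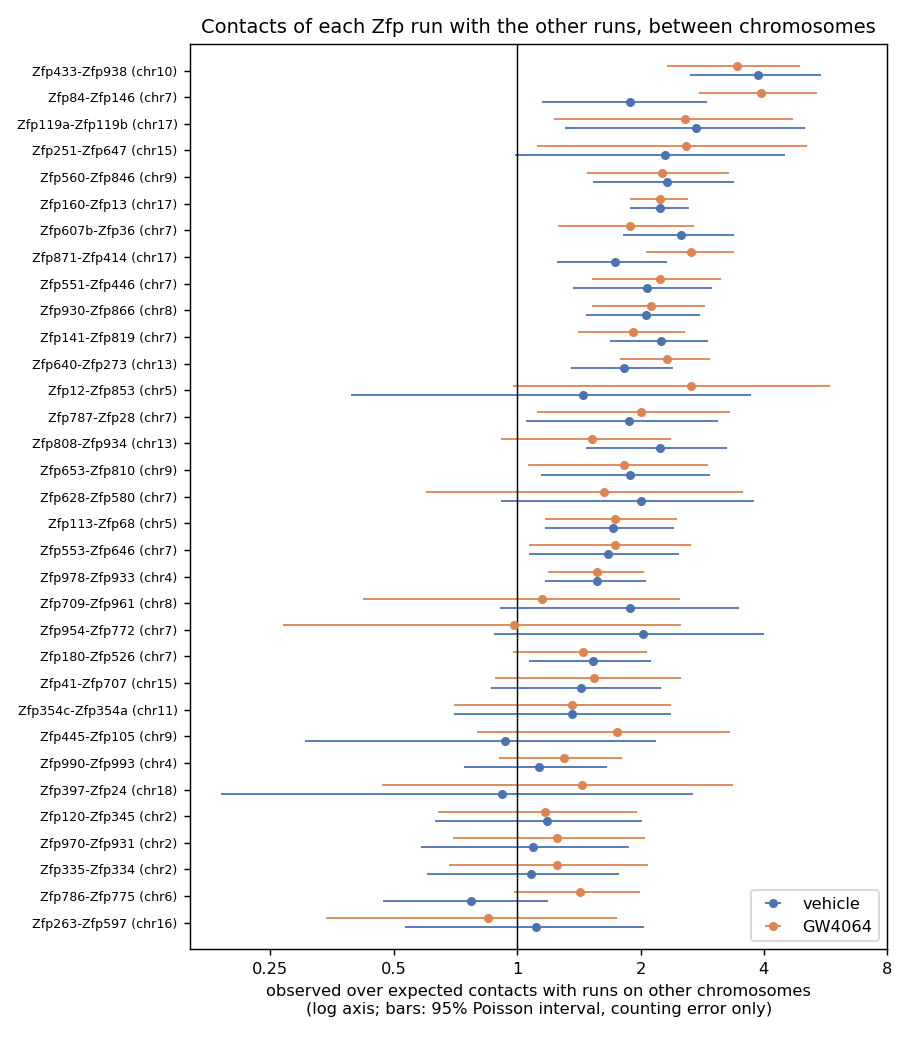
Observed over expected contacts of each of 33 zinc finger runs with the runs of other chromosomes (log axis), for the vehicle (blue) and GW4064 (orange) library, with 95% Poisson intervals for counting error and runs in order of the pooled value. 28 of 33 runs lie right of 1 in both libraries, with the chromosome 10 run at the top and the chromosome 17 run from Zfp160 to Zfp13 holding the narrowest intervals.

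The excess was also read in 1 Mb windows, over all autosomes. Among windows with at least 10 expected contacts in both libraries, 83 of 2389 (3.47%) had at least 1.5 times the expected contacts with runs of other chromosomes in both. Of the 49 windows that hold at least 1 run bin, 23 (46.9%) were at that level. The other 60 of the 83 hold no run bin, out of 2340 windows without one. Most windows at that level thus lie outside the runs. With compartment in the expectation the figures were 2.68% of all windows, 21 of 49 (42.9%) with a run bin and 43 of 2338 without one. The median run window stood at 1.58 in both libraries, and the median of all windows at 0.959 and 0.960.

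Around the runs the excess fell off with distance. Bins 50 to 250 kb from a run had ratios of 1.40 (1.29 to 1.52) and 1.56 (1.45 to 1.69) with runs of other chromosomes. At 550 to 1000 kb the ratios were 1.28 (1.20 to 1.36) and 1.32 (1.23 to 1.41), and at 2050 to 5000 kb 1.08 (1.05 to 1.12) and 1.05 (1.01 to 1.08). Bins further away were at 0.981 and 0.982. The signal was thus highest at the run bins but was not limited to them.

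**Figure D2:**
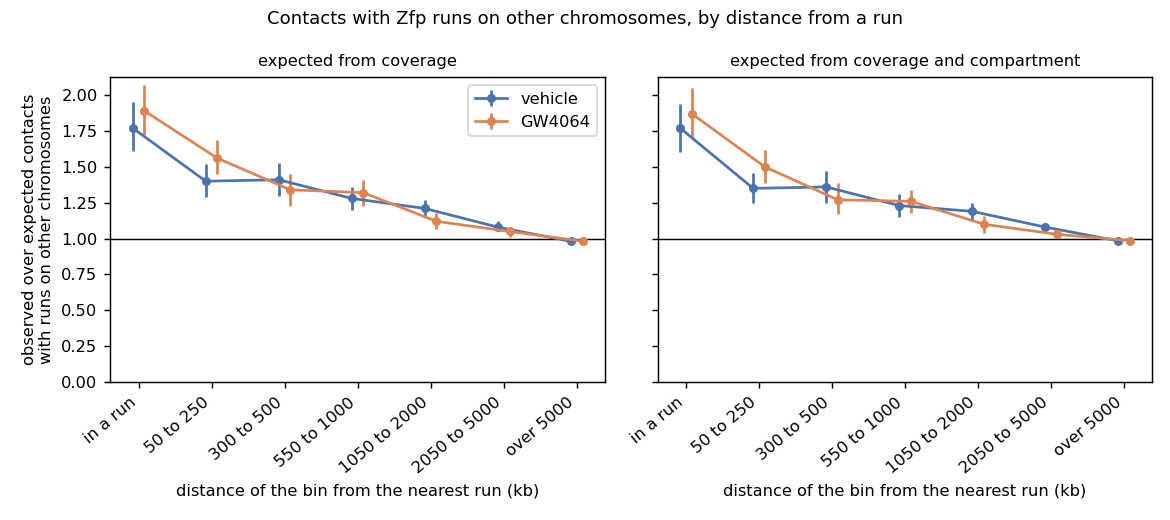
Observed over expected contacts with zinc finger runs on other chromosomes (vertical axis) by the distance of a bin from the nearest run in kb (horizontal axis), for both libraries, with 95% Poisson intervals. Left, expected from coverage; right, from coverage and compartment; in both panels values go from 1.77 or more inside runs to about 1 beyond 5000 kb.

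Other clustered families gave a yardstick, with runs made by the same rule from olfactory receptor (Olfr) and vomeronasal receptor (Vmn) genes. Some receptor genes lie inside zinc finger runs, such as Vmn2r111 in Zfp160 to Zfp13 and Olfr239 in Zfp871 to Zfp414. The receptor runs thus overlap zinc finger runs in places, and the part of the shared bins in the values below was not tested. Olfr runs met each other in trans at 1.25 (1.17 to 1.33) and 1.20 (1.13 to 1.28), below the zinc finger values, and at 1.08 and 1.03 with compartment in the expectation. Vmn runs stood at 1.55 (1.39 to 1.72) and 1.74 (1.58 to 1.90), with intervals that overlap those of the zinc finger runs, and at 1.30 (1.16 to 1.44) and 1.43 (1.30 to 1.57) with compartment, where the intervals do not overlap those of the zinc finger runs. Zinc finger runs met Olfr runs at 1.09 (1.02 to 1.16) and 1.07 (1.01 to 1.14), and Vmn runs at 1.29 (1.19 to 1.40) and 1.23 (1.13 to 1.33). Their contacts with bins of Zfp genes outside runs were at 1.21 (1.11 to 1.31) and 1.12 (1.03 to 1.23). The zinc finger runs therefore stood higher with each other than with either receptor family or with single Zfp genes, and these intervals do not overlap. Across the 33 runs, Pearson's r of the trans ratio with the share of Zfp genes among protein-coding genes was -0.06 and 0.14, as a description, since all runs come from the same libraries.

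**Figure D3:**
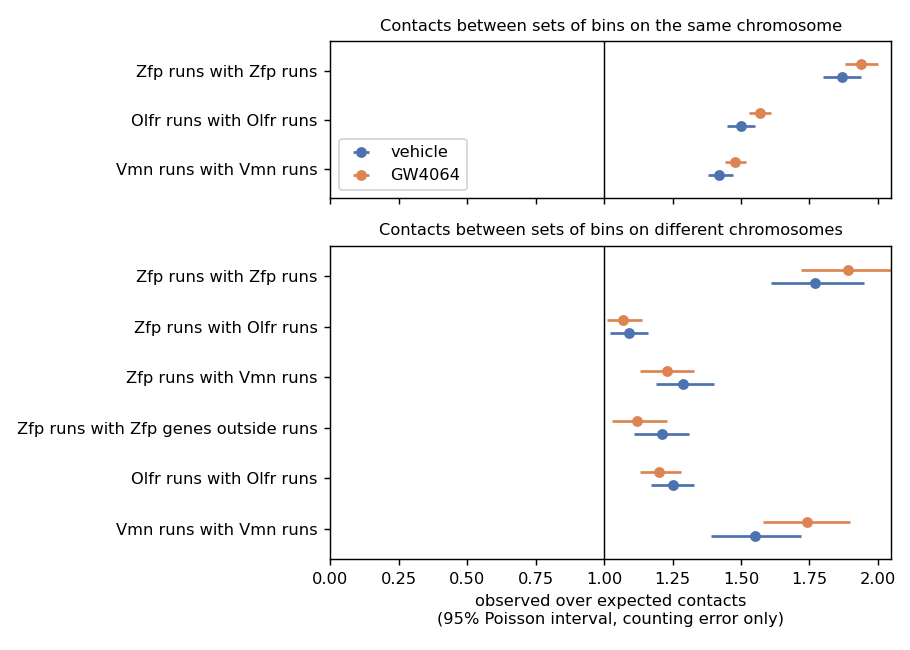
Observed over expected contacts (horizontal axis) between sets of bins on the same chromosome (top) and on different chromosomes (bottom), for both libraries, with 95% Poisson intervals. Zinc finger (Zfp) runs with each other lie furthest right in both panels, with Vmn runs nearest to them on different chromosomes.

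Single pairs of runs on different chromosomes held few contacts. None of the 508 pairs reached 10 expected contacts in both libraries, the level set for naming one. At a pooled expectation of 5, a level chosen after the data were seen, 11 pairs remained, all with the chromosome 17 run from Zfp160 to Zfp13. Of these, 8 were at least 1.5, and for 7 the interval lay above 1. The partner Zfp978 to Zfp933 on chromosome 4 had 19 and 21 contacts where 5.08 and 6.32 were expected, a pooled ratio of 3.51 (2.51 to 4.78). Zfp141 to Zfp819 followed at 3.34 (2.30 to 4.69), Zfp640 to Zfp273 at 3.31 (2.23 to 4.72), and Zfp930 to Zfp866 on chromosome 8 at 3.23 (1.97 to 4.99). At the other end, Zfp553 to Zfp646 had 1 contact in each library, a pooled ratio of 0.364 (0.0441 to 1.32).

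Those partners differed in compartment, so runs were split by the sign of their mean eigenvector, a split made after the data were seen. There were 12 runs on the gene-poor side (204 bins) and 21 on the gene-rich side (185 bins), with Zfp787 to Zfp28 (-0.01) and Zfp560 to Zfp846 close to the border. Gene-poor and gene-rich name the side of the eigenvector only, and a run's own gene density can differ. Zfp551 to Zfp446, on the gene-poor side, holds 27.9 protein-coding genes per Mb. Zfp786 to Zfp775, on the gene-rich side, holds 19.9. Between 2 gene-poor runs the trans ratio was 2.41 (2.03 to 2.84) and 2.45 (2.09 to 2.86), and between 2 gene-rich runs 2.00 (1.66 to 2.39) and 2.75 (2.31 to 3.24). Between runs of opposite sides it was 1.38 (1.18 to 1.60) and 1.25 (1.06 to 1.46), lower than either. With compartment in the expectation, the gene-poor pairs stood at 2.22 and 2.26, the gene-rich pairs at 1.46 and 1.81, and the mixed pairs at 1.73 and 1.63, so in the vehicle library the gene-rich pairs no longer stood above the mixed ones. Over both libraries, 9 of 12 gene-poor and 15 of 21 gene-rich runs had the higher ratio with their own side. This count and the values of single runs that follow use the expectation from coverage alone, without compartment. The same count was not made for other bins of either side, so it is not shown to be particular to these runs. The chromosome 4 run from Zfp978 to Zfp933 was at 2.70 (2.16 to 3.34) with gene-poor and 0.595 (0.373 to 0.901) with gene-rich runs. The chromosome 17 run from Zfp871 to Zfp414 was the reverse, at 0.884 (0.547 to 1.35) and 3.35 (2.69 to 4.13). Zfp160 to Zfp13 was above 1 with both, at 2.78 (2.39 to 3.22) and 1.73 (1.44 to 2.07). The eigenvector follows gene density weakly on some chromosomes that carry runs, with r of 0.36 on chromosome 7 and 0.25 on chromosome 13. On chromosome 7 the second eigenvector followed gene density about as closely, with an absolute r of 0.35. Compartment classes and sides of the runs there are thus less certain, and the choice of the first eigenvector was not tested.

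Runs on the same chromosome also met more than their distance and coverage give. Compartment was not part of this cis expectation, for the zinc finger runs or for the receptor families. The vehicle library held 2794 such contacts where 1495 were expected, a ratio of 1.87 (1.80 to 1.94), and the GW4064 library 3723 where 1919 were expected, 1.94 (1.88 to 2.00). Without the chromosome 4 runs both stood at 1.77 (1.69 to 1.85). Olfr runs had intervals of 1.45 to 1.55 and 1.53 to 1.61, and Vmn runs ratios of 1.42 (1.38 to 1.47) and 1.48 (1.44 to 1.52), both below the zinc finger runs. The ratio was 2.18 and 2.23 for runs under 2 Mb apart and 1.64 and 1.69 at 10 to 40 Mb. Of 53 pairs, 23 had at least 10 expected contacts in both libraries, and of those 19 were above 1 and 14 at least 1.5 in both.

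Among those 23, the 5 highest pairs lay on chromosomes 7 and 17. Zfp607b to Zfp36 met Zfp84 to Zfp146, 1389 kb away on chromosome 7, in 239 and 262 contacts, ratios of 3.56 (3.12 to 4.04) and 3.87 (3.41 to 4.36). On chromosome 17 the run from Zfp160 to Zfp13 met the one from Zfp119a to Zfp119b (chr17:55864886-55956233), 32265 kb away, in 67 and 79 contacts, ratios of 3.80 (2.94 to 4.83) and 3.60 (2.85 to 4.49). Zfp551 to Zfp446 (chr7:12412549-12985717) met Zfp141 to Zfp819, 29488 kb away, in 125 and 149 contacts, ratios of 3.56 (2.97 to 4.25) and 3.53 (2.98 to 4.14). Both of these pairs span far more of their chromosome than the first. Zfp787 to Zfp28 met Zfp141 to Zfp819 at 2.88 (2.00 to 4.00) and 2.45 (1.71 to 3.41). The fifth pair joined Zfp787 to Zfp28 with Zfp551 to Zfp446, 6016 kb away, at 2.57 (1.87 to 3.45) and 2.31 (1.67 to 3.11). The chromosome 13 runs from Zfp808 to Zfp934 and from Zfp640 to Zfp273, 4091 kb apart, met at 2.18 (1.82 to 2.60) and 2.34 (2.01 to 2.71).

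Other pairs of chromosome 7 met less than expected. Zfp84 to Zfp146 met Zfp141 to Zfp819, 12304 kb away, in 14 and 22 contacts, ratios of 0.428 (0.234 to 0.719) and 0.587 (0.368 to 0.888). Zfp607b to Zfp36 met the same partner at 0.686 (0.475 to 0.959) and 0.428 (0.274 to 0.636). Zfp141 to Zfp819 lies on the gene-poor side and both of its partners on the gene-rich side. Over all cis pairs more than 2 Mb apart, gene-poor pairs stood at 2.64 (2.38 to 2.92) and 2.62 (2.40 to 2.87), gene-rich pairs at 1.79 (1.61 to 1.98) and 1.75 (1.57 to 1.94), and mixed pairs at 1.26 (1.16 to 1.36) and 1.27 (1.18 to 1.37). The sides were themselves derived from the cis contacts of these libraries. Higher cis values for pairs of the same side are therefore partly built in and are given as a description only.

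**Figure D4:**
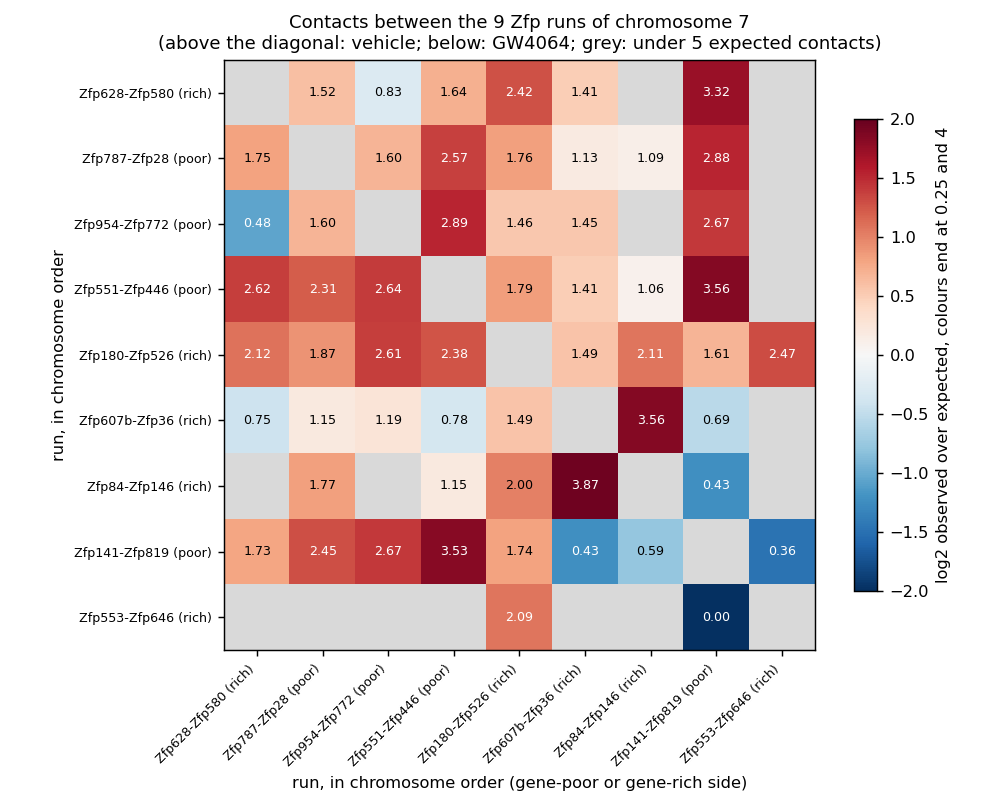
Observed over expected contacts between the 9 zinc finger runs of chromosome 7, in chromosome order and marked as gene-poor or gene-rich side, with vehicle above and GW4064 below the diagonal; colours show log2 of the ratio and grey marks the diagonal and cells under 5 expected contacts. Zfp551 to Zfp446 with Zfp141 to Zfp819 is dark red in both libraries (3.56 and 3.53), and Zfp84 to Zfp146 with Zfp141 to Zfp819 is blue in both (0.43 and 0.59).

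The chromosome 4 runs lie 133 kb apart and met in 1047 contacts in the vehicle library, where 506 were expected, and in 1796 in the GW4064 library, where 828 were expected. The ratios were 2.07 (1.94 to 2.20) and 2.17 (2.07 to 2.27). Each bin's expected cis counts are fitted to sum to its observed ones, so this excess and the values inside the runs are not independent. In a fit without the runs' own contacts, contacts between all runs of the same chromosome stood at 1.66 and 1.60. Without the chromosome 4 runs that fit gave 1.89 and 1.95. The value of the chromosome 4 pair in that fit is not given here. Inside the chromosome 4 runs the values went the other way. Zfp990 to Zfp993 had 0.543 and 0.562 of the expected contacts among its own bins, and Zfp978 to Zfp933 0.514 and 0.505, the lowest of all 33 runs. With the runs' own contacts left out of the fit they stood at 0.386 and 0.380, and at 0.282 and 0.244. The deficit was largest close by. In Zfp990 to Zfp993 contacts 50 to 200 kb apart were at 0.347 (0.305 to 0.393) and 0.384 (0.349 to 0.420), and those 550 kb and over at 1.41 (1.21 to 1.64) and 1.48 (1.32 to 1.66). In Zfp978 to Zfp933 the nearest class was at 0.427 (0.395 to 0.460) and 0.423 (0.398 to 0.450), and the farthest at 0.884 (0.583 to 1.29) and 0.707 (0.493 to 0.984). These runs hold 32 and 16 pseudogenes and share similar promoters such as those of Zfp980 and Zfp979 printed above; the part of misplaced reads or of the order of the assembly was not tested.

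Some bins of the chromosome 4 run from Zfp978 to Zfp933 also had single partners far above the rest. Its bin at chr4:147400001-147450000 met chr6:58600001-58650000 in 24 and 42 contacts and chr6:67650001-67700000 in 15 and 16. Over all runs, 5 bin pairs between chromosomes held at least 5 contacts in both libraries, all with 2 bins of this run, where the whole data held 34 such bin pairs. They made up 1.53% and 1.64% of the trans contacts of the run. None of them joined 2 zinc finger runs, and with each bin pair counted once the trans ratio over all runs was 1.78 and 1.90.

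Contacts inside runs, over all runs together, were close to the expectation. The vehicle library held 21779 and the GW4064 library 30346 contacts between bins of the same run, ratios of 1.04 (1.03 to 1.06) and 1.04 (1.03 to 1.05). Without the chromosome 4 runs they were 1.13 (1.11 to 1.15) and 1.14 (1.13 to 1.16). From distance alone the ratios fell under 1, at 0.958 and 0.955. On simulated contacts of chromosome 17 with a 1.5-fold excess inside runs this expectation gave back 1.12 to 1.14, since a bin's own coverage takes up much of the excess, and an expectation fitted without the runs' own contacts gave 1.45 to 1.46. That expectation, added after the data were seen, gave 1.02 (1.00 to 1.03) and 0.977 (0.966 to 0.988) over all runs and 1.23 (1.21 to 1.25) and 1.26 (1.24 to 1.27) without the chromosome 4 runs. The direction over all runs thus depends on the expectation and on the chromosome 4 runs.

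Single runs differed widely and alike in both libraries. Their inside ratios went from 0.514 to 2.07 in the vehicle and from 0.505 to 2.16 in the GW4064 library, with Pearson's r of 0.95 between the libraries over 33 runs. Highest was Zfp553 to Zfp646 on chromosome 7, at 2.07 and 2.16, a run of 32 protein-coding genes of which 10 are Zfp genes. With the runs' own contacts left out of the fit it stood at 4.54 (4.26 to 4.84) and 5.18 (4.86 to 5.51). Among runs with at least 200 contacts, Zfp871 to Zfp414 stood at 1.64 and 1.72 and Zfp41 to Zfp707 on chromosome 15 at 1.48 and 1.79. The third lowest run was Zfp808 to Zfp934 on chromosome 13, at 0.776 in both. The large runs lay between, Zfp640 to Zfp273 at 1.20 and 1.19 and Zfp160 to Zfp13 at 1.04 in both.

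Flanks of the same length on both sides gave a local comparison. Contacts of runs with their flanks stood at 0.883 (0.870 to 0.897) and 0.887 (0.875 to 0.899), below the inside values, and in 24 of 33 runs the inside ratio was above the flank ratio in both libraries. The same count was not made for other stretches of the autosomes, so it is not shown to be particular to the runs. Inside and flank ratios are also not independent, since each bin's expected cis counts are fitted to sum to its observed ones. The difference was wide in Zfp640 to Zfp273, with 1.20 and 1.19 inside against 0.612 and 0.574 with the flanks. Zfp160 to Zfp13 had 1.04 inside against 0.663 and 0.703. In Zfp553 to Zfp646, high inside, the flank ratios of 1.64 and 1.63 were also high. By distance, contacts inside runs were at 0.998 and 1.00 for bins 50 to 200 kb apart and at 1.19 and 1.15 for bins 250 to 500 kb apart.

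Between the libraries, local contacts of run bins (with other bins of the same chromosome up to 1 Mb away) were slightly lower with GW4064. There were 39456 in the vehicle library, and the GW4064 over vehicle ratio was 0.938 (0.926 to 0.950) after scaling to equal totals of local contacts over the autosomes. Scaled to all contacts of the libraries it was 1.04 (1.03 to 1.06), so the direction depends on the scaling. Over 33 runs the log2 ratio went from -0.59 to 0.42 with a median of -0.14. The interval lay below 0 in 17 runs and above 0 in 6.

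The 6 runs with an interval above 0 all lie on the gene-poor side. Zfp970 to Zfp931 on chromosome 2 (chr2:177464742-178078425) had a log2 ratio of 0.42 (0.26 to 0.57), Zfp808 to Zfp934 0.31 (0.19 to 0.43) and Zfp990 to Zfp993 0.29 (0.19 to 0.39). Zfp978 to Zfp933 had 0.15 (0.06 to 0.24), Zfp160 to Zfp13 0.12 (0.06 to 0.17) and Zfp141 to Zfp819 0.08 (0.01 to 0.16). Zfp640 to Zfp273 stood at 0.01 (-0.06 to 0.08). Lowest were Zfp41 to Zfp707 on chromosome 15 at -0.59 (-0.72 to -0.45), Zfp335 to Zfp334 on chromosome 2 at -0.57 (-0.70 to -0.45) and Zfp12 to Zfp853 on chromosome 5 at -0.56 (-0.79 to -0.34). Among runs with at least 8 Zfp genes, Zfp553 to Zfp646 had -0.47 (-0.57 to -0.38), Zfp607b to Zfp36 -0.41 (-0.50 to -0.32), Zfp180 to Zfp526 -0.34 (-0.43 to -0.25), Zfp84 to Zfp146 -0.33 (-0.45 to -0.22), Zfp786 to Zfp775 -0.23 (-0.32 to -0.13) and Zfp871 to Zfp414 -0.14 (-0.22 to -0.06). Over the 33 runs Spearman's rho of the log2 ratio was -0.66 with protein-coding genes per Mb and -0.80 with the eigenvector, as a description over runs of the same libraries.

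**Figure D5:**
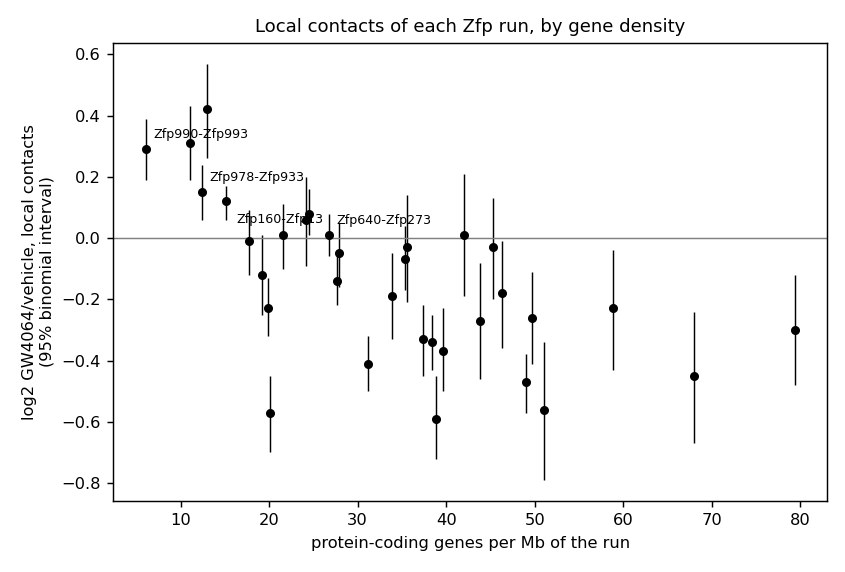
Log2 of the GW4064 over vehicle ratio of local contacts (vertical axis, 95% binomial interval for counting error) of each of 33 zinc finger runs by its protein-coding genes per Mb (horizontal axis). The runs with fewest genes lie above 0, such as Zfp990 to Zfp993 at 0.29, and most runs with over 30 genes per Mb lie below 0.

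Run bins were then set beside all autosomal bins. Of 344 run bins with at least 200 local contacts, 26 (7.56%) were at least 1.5-fold lower with GW4064 by an interval that excluded 1, where 3.28% of 46489 autosomal bins were. Another 2 (0.581%) were higher, where 0.196% of all bins were. Of the 26 lower bins, 22 had 31 to 76 protein-coding genes in the 21 bins around them. In that class the median log2 ratio was -0.32 for 125 run bins and for all bins alike. With 21 to 30 genes the median was 0.00 for 104 run bins and -0.26 for all, with 13 to 20 genes 0.04 and -0.16, and with 6 to 12 genes 0.23 and -0.04. In classes of the eigenvector, the medians of run bins and all bins were 0.20 and 0.16 in the lowest of 5 classes, 0.02 and 0.02 in the middle class and -0.35 and -0.27 in the highest.

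The 4 lowest bins hold no Zfp gene start. Lowest were chr7:127750001-127800000 with Fbxl19, Orai3 and Setd1a at -0.91 (-1.26 to -0.56), chr7:28300001-28350000 with Dll3, Timm50 and Supt5 at -0.90 (-1.21 to -0.58), and chr2:165200001-165250000 with Cdh22 at -0.87 (-1.29 to -0.46). Next were chr7:24900001-24950000 with Cd79a, Arhgef1 and Erfl at -0.85 (-1.25 to -0.46) and chr7:127200001-127250000 with Zfp553, Zfp771 and 3 other genes at -0.85 (-1.16 to -0.55). Highest were chr2:177500001-177550000 at 0.65 (0.27 to 1.04), chr2:178050001-178100000 with Zfp931 at 0.61 (0.26 to 0.96) and chr13:62550001-62600000 with Zfp934 at 0.55 (0.21 to 0.89). Zfp600 on chromosome 4 was at 0.48 (0.07 to 0.91), and chr13:66850001-66900000 with Gm10323 at 0.46 (0.14 to 0.79).

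Single zinc finger genes with a known role stood on both sides of 0. Zfp568, a KRAB repressor of a placental Igf2 transcript, had 328 and 363 local contacts and a log2 ratio of -0.36 (-0.58 to -0.14). Zfp809, a repressor of murine leukaemia proviruses, had 356 and 417 and -0.28 (-0.49 to -0.07). In the Rsl region, Rsl1 had 289 and 323 and -0.35 (-0.58 to -0.11), and Zfp708 248 and 327 and -0.11 (-0.35 to 0.14). Zfp600 on chromosome 4, named above among the highest bins, was the only one of the listed genes in runs with an interval above 0. Zfp57, which keeps imprints, and Zfp42 (Rex1) lie outside runs and stood at 0.26 (-0.06 to 0.59) and 0.15 (-0.06 to 0.36). Of 15 genes for proteins that work with KRAB zinc finger factors or in their chromatin, 6 had lower local contacts by their interval and 1 higher, with a median of -0.11. By the same call 40.2% of 20465 autosomal protein-coding genes were lower and 5.10% higher, so the count for these 15 genes is close to that of all genes. Trim28, the corepressor gene, had 206 and 183 contacts, -0.68 (-0.97 to -0.38), and Uhrf1, which brings DNMT1 to replicated DNA, 149 and 119, -0.83 (-1.19 to -0.47). Setdb1 was at -0.45 (-0.62 to -0.27) and Dnmt1 at -0.41 (-0.63 to -0.19). Smarcad1, a chromatin remodeller, was at 0.31 (0.11 to 0.50).

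For contacts between runs on different chromosomes, the comparison of the libraries depends on the scaling. The GW4064 over vehicle ratio was 1.01 (0.881 to 1.15), an interval that holds 1, after scaling to equal totals of contacts between autosomes. Scaled to all contacts it was 0.825 (0.722 to 0.943), below 1. In the 23 runs where at least 50% of the protein-coding genes were Zfp genes it was 1.23 (1.01 to 1.51), on 181 and 234 contacts, and in the other 11 it was 0.903 (0.552 to 1.47); this split was made after the data were seen, and the intervals overlap.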

How the data were processed

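The authors deposited contact counts for each pair of 50 kb bins, 1 file per library. Per the submitters' processing notes, reads were placed on mm10 with HiC-Pro and Bowtie2 2.2.9. How reads were filtered, whether duplicates were removed or mice pooled, and which HiC-Pro version ran is not given in the sources used here. Genes came from RefSeq tables. The members and gene lists were chosen with earlier results of these data known.

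Expected cis counts were the product of a distance curve per chromosome and a weight per bin, and expected trans counts the product of both bins' trans counts scaled per chromosome pair, over bins with at least 100 contacts. Both fits were tested on simulated data: in trans a 1.8-fold excess came back as 1.73 to 1.80, and no excess as 1.01 to 1.08. The trans simulation drew both partners by coverage alone, without compartments or likeness of neighbouring bins. It checks the calculation only, and cannot show that real regions without an excess of their own would give 1. On chromosome 17 the cis fit returned 1.12 to 1.14 for a 1.5-fold excess inside runs. The expectation with compartment and the values between runs in cis were not tested in this way. Ratios of observed to expected carry exact Poisson intervals, and GW4064 over vehicle ratios exact conditional binomial intervals. Local counts were scaled by 1.42, trans counts by 1.05. No p-value was computed, since each group has 1 library.

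Runs were named where they held at least 8 Zfp genes, lay at 145 to 148 Mb of chromosome 4, or had the 3 highest or lowest values among runs with at least 200 contacts. Pairs were named as the 5 highest with at least 10 expected contacts in both libraries, bins as the 5 highest and 5 lowest, and single genes from a list of KRAB zinc finger genes and cofactors. Other runs and pairs were named after their values were seen. Alternatives changed the rule for runs, the bins, the expectation and the scaling. Python 3.11.15, numpy 2.4.6, pandas 2.3.3 and scipy 1.17.1 were used.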

Additional observations from a re-analysis of the deposited data

How the results depend on the processing

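Of 108 alternative values, 60 moved by less than their counting interval, 44 moved by more and 4 turned direction. Of 88 observed over expected alternatives, 85 stayed above 1. In each pair below the vehicle value comes first, and the cause of a move was not tested.

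Contacts inside runs turned to 0.958 and 0.955 when expected from distance alone, and to 0.977 in the GW4064 library (1.02 in the vehicle library) in the fit without the runs' own contacts. They were 1.13 and 1.14 without the chromosome 4 runs, 1.23 and 1.26 with both changes, 1.07 and 1.06 in runs of at least 8 Zfp genes, 1.07 and 1.06 with each bin pair counted once, and 1.02 in the GW4064 library for bins wholly inside a run. Contacts between runs on one chromosome were 1.70 and 1.71 with 3 starts all within 500 kb, 1.58 and 1.53 in runs of at least 8 Zfp genes, 1.77 in both without the chromosome 4 runs, 1.45 and 1.39 with each bin pair counted once, 1.66 and 1.60 without the runs' own contacts in the fit, and 2.02 in the GW4064 library from distance alone. On different chromosomes, runs of at least 8 Zfp genes gave 2.20 in the GW4064 library, and 1.95 and 2.24 given compartment.

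Local contacts, GW4064 over vehicle, turned to 1.04 when scaled to all contacts. They were 0.951 for bins wholly inside a run, 0.924 without the chromosome 4 runs and 0.977 for contacts within the bin. Trans contacts between runs, GW4064 over vehicle, were 0.825 when scaled to all contacts.

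The following settings, and the fit without the runs' own contacts, were chosen after seeing the data. Runs with at least 50% Zfp genes gave 1.02 and 1.01 inside, 2.11 on different chromosomes given compartment in the GW4064 library, and GW4064 over vehicle ratios of 0.985 (local) and 1.23 (trans). Runs with under 50% gave 1.10 and 1.11 inside, 1.63 and 1.66 on one chromosome, 2.15 and 2.42 on different chromosomes, and 0.849 (local). Without runs of low coverage, inside contacts were 1.07 in both libraries and those on one chromosome 1.77 in both.

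No paired analysis was possible because each group has 1 library. At this depth no pair of runs on different chromosomes had 10 expected contacts in both libraries, so single trans pairs are imprecise.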

Other observations

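Windows of 1 Mb outside the runs were also ranked by their contacts with runs of other chromosomes. The window at 20 to 21 Mb of chromosome 12 was highest, at 3.77 in the vehicle and 5.62 in the GW4064 library, and 91 of its 219 such contacts over both libraries were with the run from Zfp978 to Zfp933. The window at 58 to 59 Mb of chromosome 6, which holds vomeronasal receptor genes of the Vmn1r family, stood at 3.10 and 4.48, with 142 of 226 contacts from the same run. Both windows rest in part on single bin pairs. The bin at chr4:147400001-147450000 met chr6:58600001-58650000 in 24 and 42 contacts and chr6:58550001-58600000 in 10 and 14. It met chr12:20200001-20250000 in 7 and 7, and chr4:147300001-147350000 met that chromosome 12 bin in 12 and 7. The window at 3 to 4 Mb of chromosome 7 stood at 2.97 and 2.13, with 58 of 119 contacts from the run from Zfp160 to Zfp13.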
